A study of Ovis aries with 6 samples.

Results

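ALDH1A1 was measured in the dorsal skin of newborn Hu sheep lambs by 1 of the 15008 probes of a one-colour array, and it is 1 of 500 genes that could be named there from RefSeq accessions. The probe, A_70_P030026, carries the accession NM_001009778. It was spotted once per array, so each lamb gave 1 ALDH1A1 reading. The gene was chosen by its measured coat pattern difference: earlier results of these arrays took named genes that had the smallest unadjusted p, a log2 difference of at least 1 and groups that did not overlap. The difference is therefore given here as a description, without a test. The choice used values without the spots that the scanner software had marked as outliers, so those marks entered it. The rank of the gene's signal did not.

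Hu sheep are a Chinese breed kept for the wavy lambskin of its newborns. All lambs were 2 days old, and 3 had a large wave and 3 a small wave coat pattern. Per the series' design text the lambs had 1 sire, and each large wave lamb was matched with a small wave lamb of the same dam. The lambs are called 1 to 3 in each group after the replicate numbers of the labels. The labels name no other treatment or genotype, and the arrays, 1 lamb each, shared 1 slide. In whole skin, fewer cells of a type and less RNA per cell cannot be told apart.

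ALDH1A1 encodes retinaldehyde dehydrogenase 1, a cytosolic enzyme that oxidises retinaldehyde, made from vitamin A, to retinoic acid. Retinoic acid binds nuclear receptors of the RAR family, which pair with RXR receptors on DNA and switch target genes, and CYP26 enzymes break it down. Epidermis, sebaceous glands and hair follicles make and use retinoic acid, and an excess or a lack of vitamin A is known to disturb hair growth and sebum production.

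ALDH1A1 gave a bright signal in every lamb. Its processed signal, the scanner software's background-corrected brightness, was 2386 in large wave lamb 1, 382 in lamb 2 and 2765 in lamb 3. In small wave lambs 1 to 3 it was 686, 322 and 543. Large wave lambs 1 and 3 stood apart from the other 4 arrays, and the highest signal was 8.58 times the lowest. The spot was well above background on all 6 arrays, and 0 were saturated. Its median pixel signal was between 11.0 times the local background in small wave lamb 2 and 101.5 times in large wave lamb 3. The software's own error estimate for the spot was close to 10% of the signal on each array.

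The arrays differed in brightness, so levels were also expressed relative to each array's 75th percentile signal. That percentile was 391.5, 204.7 and 249.2 in large wave lambs 1 to 3 and 284.8, 152.2 and 94.7 in small wave lambs 1 to 3. Relative to it, ALDH1A1 was 6.09, 1.86 and 11.1 times as bright in large wave lambs 1 to 3. It was 2.41, 2.12 and 5.73 times as bright in small wave lambs 1 to 3. On this scale small wave lamb 3, the dimmest array, came close to large wave lamb 1, and large wave lamb 2 was the lowest of all. The order from high to low was large wave lambs 3 and 1, small wave lambs 3, 1 and 2, and large wave lamb 2. Large wave lamb 1 and small wave lamb 3 differed by less than the software's error estimate. Scaling brought the range between highest and lowest from 8.58-fold to 5.95-fold.

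By rank, ALDH1A1 was among the brighter probes of newborn skin. On the single arrays it outshone 92.5, 81.6 and 95.4% of the 15008 probes in large wave lambs 1 to 3. The shares were 84.8, 82.5 and 89.8% in small wave lambs 1 to 3. Its best rank was 695 and its lowest rank 2754. From its mean over the arrays without a quality mark it outshone 91.0% of probes. In the authors' deposited table, which holds log2 values, the shares per array rounded to the same values. Probes differ in how well they bind, so the rank describes signal, not the number of transcripts.

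**Figure D1:**
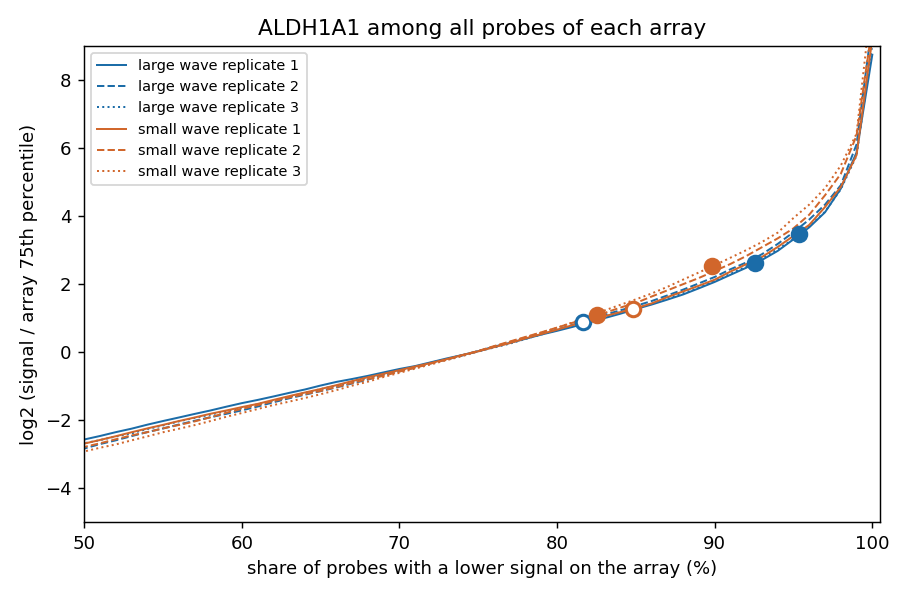
Signal of all 15008 probes on each array (lines, log2 of signal over the array's 75th percentile) against the share of probes with a lower signal (%), with the ALDH1A1 probe as a point on each line. Blue marks large wave and orange small wave lambs, and open points are spots marked as non-uniform. ALDH1A1 lies between 81.6 and 95.4% on all 6 arrays.

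On 2 arrays the scanner software marked the ALDH1A1 spot as non-uniform, meaning that its pixels varied more than the noise model allows. These were large wave lamb 2 and small wave lamb 1, and spots marked in this way are left out of the main values. In large wave lamb 2 the spot was also small. Its diameter was 77.3% of the median over spots well above background on that array, and only 1.12% of those spots were smaller. In small wave lamb 1 it was 95.9% of the median, and on the other arrays 99.4 to 105%. Of the 24 spots within 2 rows and 2 columns, 2 were marked in large wave lamb 2, 1 in small wave lamb 1, and 0 on each of the other arrays.

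With the marked spots left out, each group kept 2 lambs, and ALDH1A1 was higher in large wave skin. The log2 scaled signal was 2.61 in large wave lamb 1 and 3.47 in lamb 3. It was 1.08 in small wave lamb 2 and 2.52 in lamb 3. The groups did not overlap, but large wave lamb 1 and small wave lamb 3 were close together. The means were 3.039 ± 0.61 (SD, n = 2) and 1.801 ± 1.02 (SD, n = 2), a difference of 1.24 on the log2 scale or 2.36-fold. Both large wave arrays that remain were brighter than both small wave arrays that remain, so coat pattern and array brightness cannot be told apart in this value.

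With the marked spots kept, all 6 lambs counted and the groups overlapped. The marked values were 0.90 in large wave lamb 2, below every small wave lamb, and 1.27 in small wave lamb 1. The means became 2.33 ± 1.31 (SD, n = 3) in large wave and 1.62 ± 0.78 (SD, n = 3) in small wave skin. The difference was 0.70 on the log2 scale or 1.63-fold, smaller than the SD of either group. It no longer reached the log2 difference of 1 by which the gene had been picked. Whether the groups overlapped therefore depended on the marked spot of large wave lamb 2. The marked value of small wave lamb 1 lay between those of small wave lambs 2 and 3.

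**Figure D2:**
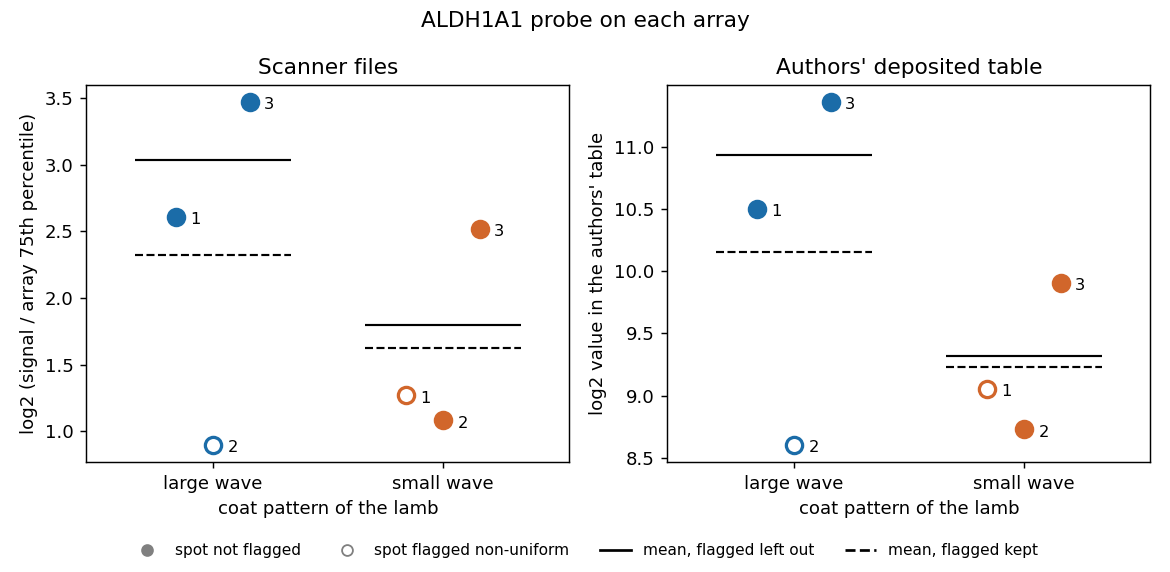
ALDH1A1 on each array, as log2 of signal over the array's 75th percentile (left) and as the log2 value of the authors' deposited table (right), by coat pattern, with lamb numbers beside the points. Open points are spots marked non-uniform, solid lines the group means without them and dashed lines the means of all 3 lambs. Large wave lamb 2, at 0.90 on the left, is the lowest point in both panels.

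The authors' deposited table gave the same order of lambs. It lists ALDH1A1 at 10.50, 8.60 and 11.36 in large wave lambs 1 to 3 and at 9.05, 8.73 and 9.91 in small wave lambs 1 to 3. The marked spots carry values there like any other. Large wave lamb 2 was again the lowest array, and the groups overlapped. Over all 6 arrays the difference was 0.93 on the log2 scale, with means of 10.15 ± 1.41 (SD, n = 3) and 9.23 ± 0.61 (SD, n = 3). Without the marked arrays it was 1.61.

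Within the same-numbered pairs the direction was not uniform. With marked spots kept, large wave minus small wave was 1.34 in pair 1, -0.18 in pair 2 and 0.95 in pair 3. Pair 2 was the only one in which the small wave lamb had the higher value. In the authors' deposited table the pairs gave 1.45, -0.12 and 1.45. With marked spots left out only pair 3 keeps both lambs.

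Single lambs moved the difference widely. With marked spots left out it was 0.52 without small wave lamb 2, 0.81 without large wave lamb 3 and 1.96 without small wave lamb 3. Each of these 3 values sets 1 lamb of a group against 2 of the other. With marked spots kept it was 0.13 without large wave lamb 3, 0.43 without small wave lamb 2, 1.15 without small wave lamb 3 and 1.42 without large wave lamb 2. Every value stayed above 0, but all of them re-use the arrays from which the gene was picked. With array brightness as a covariate the difference was 3.63 with marked spots left out, from 4 arrays, and 0.85 with them kept. Without any scaling between arrays it was 2.62 and 1.46, on a scale where the median over all tested probes was itself 0.74 in both cases.

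**Figure D3:**
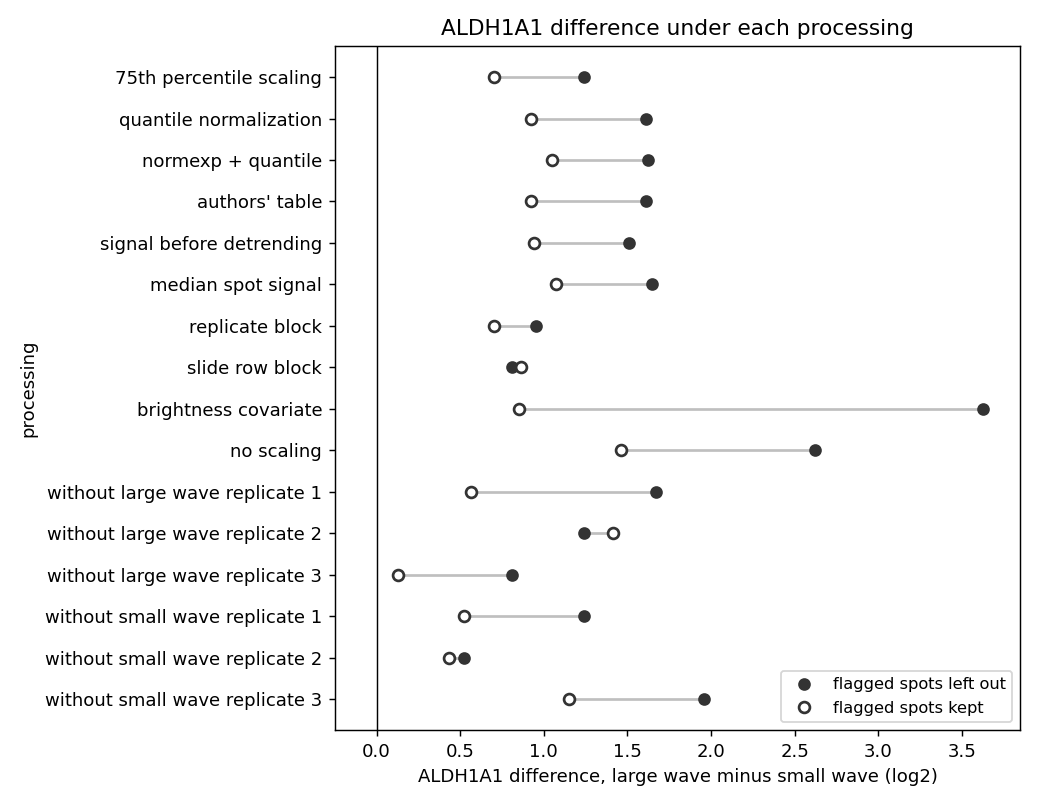
Difference in ALDH1A1, large wave minus small wave on the log2 scale, under each way of processing (rows), with marked spots left out (filled) or kept (open). All values lie above 0, from 0.13 to 3.63. Keeping the marked spots gave the lower value in each row except those of the slide row block and of leaving out large wave lamb 2.

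Processing inside the scanner software also bore on the spot. The software divides out a slow trend in brightness across the array, and near the ALDH1A1 spot that step was uneven between arrays. It multiplied the spot by 0.998, 1.02 and 0.873 in large wave lambs 1 to 3 and by 1.13, 1.06 and 1.26 in small wave lambs 1 to 3. The step raised the spot in every small wave lamb, and the largest cut fell on large wave lamb 3, the brightest ALDH1A1 spot. Taken before that step, the difference was 1.51 with marked spots left out and 0.94 with them kept.

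ALDH1A1 varied more between lambs of one coat pattern than most probes did. Its SD within groups, with marked spots kept, was 1.08 on the log2 scale, where the median over the 10051 tested probes was 0.55. Of those probes 86.6% had a lower SD. In its own class of brightness, the second brightest of 10, 93.5% of 1005 probes did, and the median was 0.44. Repeated spots give the spread of readings within 1 array, which is a different quantity from the spread between lambs. In 13 sets of repeated spots of 3 probes, each set on 1 array, taken over unmarked spots and at least as bright as the dimmest ALDH1A1 value, the median SD was 0.16 and the highest 0.39.

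Marked spots were common among bright probes elsewhere on the arrays: 22.6% of the probes in the class of ALDH1A1 had at least 1 marked array, against 0.30% in the dimmest class. At least 2 arrays were marked in 7.66% of the probes of that class and in 2.37% of all tested probes, and 43 probes were marked on exactly the arrays where ALDH1A1 was. In large wave lamb 2, 76.5% of 226 marked probes were below the mean of the other large wave arrays, by a median of -0.52. Among 641 unmarked probes of the brightest class, which is not that of ALDH1A1, only 20.3% were, with a median of 0.35. ALDH1A1 was at -2.14 by the same measure. The marked probes came from all classes, so marked and unmarked probes were not matched in brightness. In small wave lamb 1, marked probes were low in 66.7% and unmarked bright ones in 73.3% of cases, and ALDH1A1 was at -0.53. In the 10 sets of repeated spots that held a marked and at least 2 unmarked spots of 1 probe on 1 array, the marked spots deviated by -2.86 to 1.09, with a median size of 0.59. What these marks contributed to the ALDH1A1 values was not tested.

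Across the whole array 0 of 10051 probes passed an adjusted p of 0.05 between the coat patterns in limma, which is 0% called, and 384 had an unadjusted p under 0.05. A difference at least as large as that of ALDH1A1 occurred in 6.10% of tested probes with marked spots left out. With marked spots kept it occurred in 25.6%. The median size of a difference was 0.40 in both cases. The first share describes the value by which the gene was picked.

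The rest of the retinoid pathway was thinly covered. Of 67 genes listed for retinoic acid synthesis, uptake and transport, breakdown, receptors, responsive genes and the aldehyde dehydrogenase family, 6 could be named on the array. ALDH1A1 was the only one that makes retinoic acid and the only aldehyde dehydrogenase. No receptor and no CYP26 enzyme was among the named genes. Beside ALDH1A1, 4 genes were tested, of which 1 was higher and 3 lower in large wave skin with a median difference of -0.35. None passed (0 of 4, limma). Over all tested probes 48.7% were higher and the median was -0.02. The signs of FABP5, DGAT1 and ICAM1 changed with the spot, probe or processing used, as given below.

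Among genes that carry or store retinoids, FABP5, the epidermal fatty acid binding protein that can deliver retinoic acid to PPAR-delta, was bright in every lamb. Its log2 scaled signal was 6.03, 5.58 and 5.80 in large wave lambs 1 to 3 and 6.22, 6.15 and 3.92 in small wave lambs 1 to 3. The last of these was a marked spot, far below the other 5 values. The difference was -0.38 without it (adjusted p = 0.783, limma) and 0.37 with it, and 0.73 in the authors' deposited table. The direction of FABP5 therefore turned on that spot.

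DGAT1 makes triglycerides and can also esterify retinol for storage. It had values of -0.12, 0.30 and -0.22 in large wave and 0.04, 0.35 and 0.50 in small wave lambs 1 to 3. The groups overlapped, the difference was -0.31 (adjusted p = 0.791, limma), and a second probe gave the opposite sign, 0.20. TTR, transthyretin, carries the retinol binding protein in blood plasma. Its probe was well above background in 1 small wave lamb and 0 large wave lambs, and it was not tested.

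Of the 18 genes listed as responsive to retinoic acid, only ICAM1 and OXT could be named on the array. ICAM1, an adhesion molecule for white blood cells, was well above background in 2 of 3 large wave lambs and 1 of 3 small wave lambs. Its difference was 0.24 (adjusted p = 0.945, limma) and -0.76 with array brightness as a covariate. OXT, the hormone precursor of oxytocin, had a difference of -0.71 (adjusted p = 0.777, limma), and its other probe gave -0.57. The log2 scaled signal of OXT was -2.64, -2.45 and -1.91 in large wave and -1.60, -1.23 and -2.03 in small wave lambs 1 to 3. Its groups overlapped in that large wave lamb 3 was above small wave lamb 3.

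The genes whose signal followed ALDH1A1 most closely over the 6 arrays were SS18L2, IL18 and MYC, out of 263 named genes well above background on all arrays. Pearson's r, with marked spots kept, was 0.91, 0.88 and 0.88. The median r over the 263 genes was -0.05. These are the extremes of many correlations over 6 arrays that share 1 slide and differ in brightness, and they are a description. IL18 is a cytokine of the interleukin-1 family, and MYC is a transcription factor that drives cell growth.

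MYC varied even more than ALDH1A1. Its log2 scaled signal was 2.62, -1.58 and 3.65 in large wave lambs 1 to 3 and 1.82, 0.29 and 2.27 in small wave lambs 1 to 3. Large wave lamb 3 was its highest and large wave lamb 2 its lowest array, as for ALDH1A1, and 0 of its 6 spots were marked. A second MYC probe followed ALDH1A1 less closely, at r = 0.56. IL18 ran from -0.71 in large wave lamb 2 to 0.19 in large wave lamb 3, and its second probe had r = 0.51. SS18L2 ran from 1.56 to 4.75 between the same arrays, with 2 of its 6 spots marked. These genes were picked by their r with ALDH1A1, marked spots kept, so shared highest and lowest arrays are no separate evidence.

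At the other end stood ST3GAL4, a sialyltransferase (r = -0.94), the mitochondrial outer membrane protein TSPO (r = -0.88) and the copper chaperone ATOX1 (r = -0.88). Their ranges were narrow. ST3GAL4 lay between 0.80 and 1.37, TSPO between 2.06 and 2.88 and ATOX1 between 3.32 and 4.24. In the authors' deposited table r was -0.93 for ST3GAL4 but -0.49 for TSPO and -0.66 for ATOX1.

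**Figure D4:**
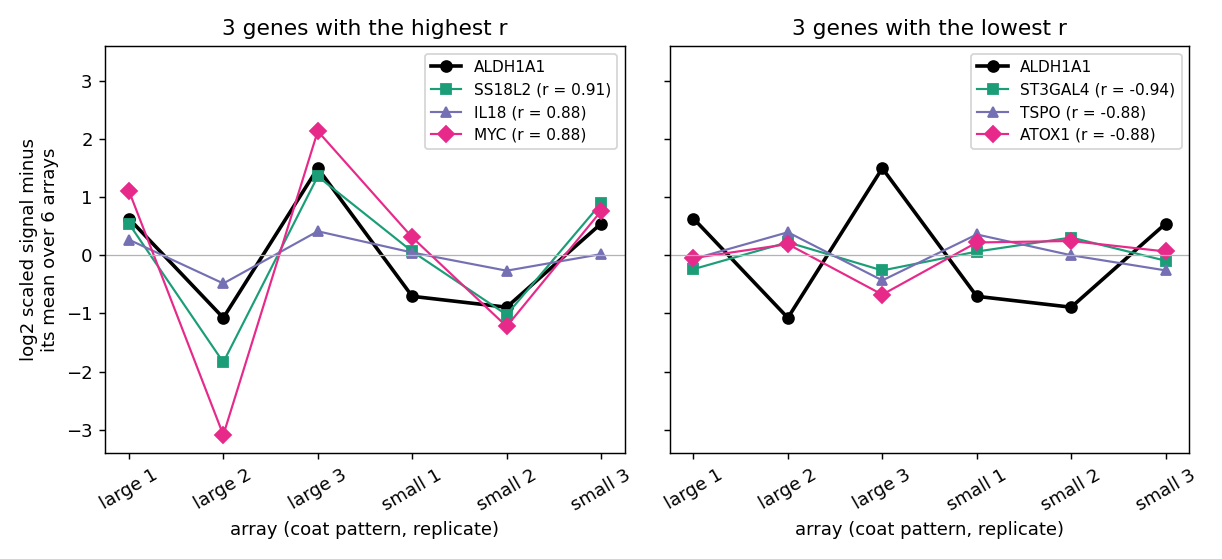
Log2 scaled signal minus its mean over the 6 arrays (vertical axis) for ALDH1A1 (black) and the 3 named genes with the highest (left) and the lowest (right) Pearson r with it, by array. MYC, whose values before the mean was subtracted ran from -1.58 in large wave lamb 2 to 3.65 in large wave lamb 3, spans more than ALDH1A1, while ST3GAL4, TSPO and ATOX1 move little.

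The samples carried markers of skin. All 9 hair shaft and inner root sheath genes that could be named were well above background on 6 of 6 arrays, as were SFN of the epidermis and DCN, decorin, of dermal fibroblasts, while PRD-SPRRII of the epidermis was on 0. Of other tissues, the muscle gene MYL11, the blood gene HBB and the plasma protein SERPINA1 were on 6 of 6 arrays, PLIN1 of fat cells, TYR of pigment cells and ALB of liver on 5, and MB of muscle on 0. Of white blood cell genes, CD14 and CD3E were on 6 of 6 arrays, CD4 on 1 and ITGAM on 0. These counts take each gene's most often detected probe. With marked spots kept, the summed scaled signal of each of 9 marker lists overlapped between the coat patterns. SFN, the only tested gene of the epidermis list, had marked spots on 2 arrays. Without them its log2 scaled signal was 7.64 ± 0.08 (SD, n = 2) in large wave and 8.76 ± 0.29 (SD, n = 2) in small wave skin. That difference was -1.12 (adjusted p = 0.777, limma), and -0.77 with marked spots kept. The fat cell list reached 3.01 to 3.67 in large wave and 3.37 to 6.72 in small wave skin, and the sebaceous gland list 5.172 to 5.714 and 4.810 to 9.004. The part of any cell type in the ALDH1A1 values was not tested.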

How the data were processed

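Total RNA from dorsal skin was Cy3-labelled and hybridised to one-colour Agilent arrays (design 019921). Spot intensity was deposited by the authors as written by Feature Extraction 10.7.3.1, per the file headers (Agilent Feature Extraction 10.7 per the submitters' processing notes), background-subtracted but not scaled between arrays. The authors' deposited table holds log2 values with a median of 4.95 per column. It tracked quantile-normalised log2 processed signals, and no source used here states how it was normalized.

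The log2 processed signal minus each array's 75th percentile was used, without control spots and without spots marked as outliers. Probes well above background on at least 3 arrays and with a value in each group were fitted with limma 3.58.1 in R 4.3.3 (variance trend, Benjamini-Hochberg, threshold 0.05). The fit was tested on simulated data, with its pass conditions set at a spread smaller than the median of these data. What it would find at the real spread is not given here. RefSeq accessions were matched without versions to the gene table of ARS-UI_Ramb_v3.0 (767 of 786 probes); neither coordinates nor sequences were used. A gene is represented by its tested probe with the highest mean.

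ALDH1A1, the gene lists and the rule for named genes (all list members on the array, and the 3 genes most and least correlated with ALDH1A1) were chosen with earlier results of these data known. Replicate numbers were taken to pair the lambs: deviations of same-numbered lambs from their group means correlated at 0.30, 0.18 and 0.21, and the design text speaks of pairs by dam. The labels do not tie numbers to dams, and the numbers also match the slide columns. Values measure the spread of 3 lambs per group, which limits the precision. Median spot signals stood in for mean signals in the normexp alternative.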

Additional observations from a re-analysis of the deposited data

How the results depend on the processing

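The ALDH1A1 difference was above 0 in all 33 alternatives run, from 0.13 to 3.63, against 1.24. All of them re-use the arrays from which the gene was picked, so the shared sign is no independent evidence. Some repeat 1.24 because they change none of the ALDH1A1 values used. These are the other filters on dim probes, and leaving out an array whose marked spot was already left out. It moved by more than the SD within groups (0.84) in 3 of them: 3.63 with array brightness as a covariate, 2.62 without scaling between arrays, and 0.13 with marked spots kept and large wave lamb 3 left out. The cause was not tested. Quantile normalization gave 1.61, normexp with offset 50 gave 1.62, and median spot signals gave 1.65. With the replicate number as a block, the paired analysis gave 0.95 with marked spots left out, which is the difference of pair 3 alone. It gave 0.70 with them kept. Blocking on slide row gave 0.81 with marked spots left out and 0.86 with them kept. With them left out, large wave lamb 3 was alone in its slide row, so 0.81 is the value without that lamb. Neither block changed a call. The share of probes dimmer than ALDH1A1 stayed between 87.0 and 93.1%. The number of probes past the adjusted threshold of limma was 0 in each alternative, while an unadjusted p under 0.05 was reached by 142 probes with the slide row as a block, 584 with the replicate block, 1765 without small wave lamb 1 and 2175 with array weights. Keeping marked spots together with another scaling, signal column, brightness covariate or slide row block, the deposited table without the marked arrays and the unscaled signal were added after seeing the data. No other probe on the array could be named as ALDH1A1, so an alternative probe was not run.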
